A study of Mus musculus with 74 samples.

Results

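The guanylate-binding proteins (GBPs) and the immunity-related GTPases (IRGs) are families of large and small GTPases that cells make when interferon reaches them. The 10 genes described here are Gbp2, Gbp3, Gbp4, Gbp5, Gbp6, Gbp7, Igtp, Irgm1, Irgm2 and Iigp1, chosen by name among the 49480 gene rows of the count table, and all 10 were found there. Of these, 6 are GBPs and 4 are IRGs, and each was followed as its counts per 1000000 counts of the library (CPM) in all 20 groups of the study.

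The study implanted MC38, a line of colon carcinoma from mice, under the skin of C57BL/6J mice aged 12 or 3 months, and on day 10 of tumor growth sorted immune cells from tumors and from spleens. The labels name no engineered allele and no drug. The 5 sorted cell types were macrophages (CD45+CD11b+F4/80+), dendritic cells (CD45+CD11b+CD11c+MHCII+), regulatory T cells (CD45+TCRb+CD4+CD25+), conventional CD4 T cells (CD45+TCRb+CD4+CD25-) and CD8 T cells (CD45+TCRb+CD8+), each by tumor and spleen and by 12 and 3 months, which gives 20 groups and 74 Smart-seq2 libraries of 1000 sorted cells. Of the groups, 15 held 4 libraries, 4 held 3, and conventional CD4 T cells of 3-month tumors held 2. The labels name 4 libraries as male, replicate 1 of each dendritic cell group, and 70 as female. Nothing in the labels says that the libraries of a group came from separate mice, so every p-value measures only the spread between libraries, which may be technical. Library totals ran between 1652812 and 9115858 counts. The sorts carried their defining transcripts: the median of Adgre1 (F4/80) was 556 CPM in macrophages, that of Itgax (CD11c) 459 CPM in dendritic cells, that of Foxp3 1090 CPM in regulatory T cells and that of Cd8a 1130 CPM in CD8 T cells. Foxp3 was also present in the CD25- conventional CD4 T cells, at 21.2 to 354 CPM. In 2 libraries of splenic dendritic cells, replicates 3 and 4 at 3 months, the title gives 3 months and the age label 12 months. They were grouped by title, and results on splenic dendritic cells are given with and without them, which leaves 1 library at 3 months, a male one.

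In mouse cells, interferon gamma binds a receptor of Ifngr1 and Ifngr2 chains, and signaling from it drives GBP and IRG genes through GAS sites, while type I interferon acts on ISRE sites. GBPs coat the vacuoles and membranes that shelter bacteria and Toxoplasma and help open them to inflammasome sensors. IRGs fall into effectors such as Iigp1 (Irga6), which load onto parasite vacuoles, and the regulators Irgm1, Irgm2 and Igtp (Irgm3), which sit on the cell's own membranes and keep the effectors off them. Macrophages are the best studied site of both families, and T cells also make them.

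In the GRCm38 annotation all 10 are protein-coding genes. Gbp5, Gbp7, Gbp3 and Gbp2 lie in 1 cluster on the plus strand of chromosome 3, which runs over chr3:142493978-142522344 for Gbp5, chr3:142530342-142550149 for Gbp7, chr3:142560026-142573209 for Gbp3 and chr3:142620602-142638008 for Gbp2. Gbp4 (chr5:105115767-105139586) and Gbp6 (chr5:105270702-105293698) lie on the minus strand of chromosome 5. Igtp (chr11:58199556-58207591) and Irgm2 (chr11:58199618-58222782) overlap on the plus strand of chromosome 11 and Irgm1 (chr11:48861968-48871683) is on the minus strand of the same chromosome. The place of Iigp1 is given with its levels. Some exons are shared with other genes. Gbp6 shares 1726 exon bases with the gene model Gm43302, Gbp7 shares 637 with the pseudogene Gm43802, and Igtp and Irgm2 share 162 bases with each other. How the counting treated reads that match several of these near-identical genes is not given in the sources used here, so a value of 1 GBP or IRG may hold reads of another.

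Promoter windows from RefSeq (build GRCm38.p6, 250 bases before to 50 after the start) were found for 7 of the 10 genes, Gbp2, Gbp3, Gbp5, Gbp7, Igtp, Irgm1 and Irgm2. They were searched on both strands for TTCNNNGAA, the core of a GAS site, which reads the same on both strands, and for GAAANNGAAA, the core of an ISRE, whose reverse complement is TTTCNNTTTC. These genes had 8 windows, 2 of them for Gbp3. An ISRE core was present in 7 of the 8 windows, against 3.44% of all 32851 windows, and so in 7 of the 7 genes. A GAS core was present in 4 of the 8 (Gbp5, Gbp7, Igtp and Irgm2), against 8.3% of all windows. The second window of Gbp3 held neither core. Both were present in 0.454% of all windows. The windows of Gbp2, Gbp7, Igtp and Irgm1 are shown because these genes stand for the patterns described further on: Gbp2 with the highest level in tumor macrophages, Gbp7 and Igtp with the highest levels in tumor T cells, and Irgm1 with the most even level over the 20 groups. Capitals mark the matches. Gbp2 (chr3:142620413-142620712, plus strand) has 1 ISRE core, which begins at base -59 from the start. Gbp7 (chr3:142530086-142530385, plus strand) has GAS cores at -106 and -87 and an ISRE core at -53. Igtp (chr11:58199306-58199605, plus strand) has a GAS core at -45 and an ISRE core at -34. Irgm1 (chr11:48871371-48871670, minus strand) has 2 ISRE cores, at -30 and -24, which overlap. A match is a stretch of letters and no measure of binding.
Gbp2: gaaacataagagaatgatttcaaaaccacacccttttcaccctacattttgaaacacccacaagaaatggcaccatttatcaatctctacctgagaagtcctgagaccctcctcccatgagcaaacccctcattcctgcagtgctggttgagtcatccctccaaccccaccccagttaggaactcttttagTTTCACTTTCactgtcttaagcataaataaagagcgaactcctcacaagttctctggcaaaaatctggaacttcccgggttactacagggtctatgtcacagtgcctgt
Gbp7: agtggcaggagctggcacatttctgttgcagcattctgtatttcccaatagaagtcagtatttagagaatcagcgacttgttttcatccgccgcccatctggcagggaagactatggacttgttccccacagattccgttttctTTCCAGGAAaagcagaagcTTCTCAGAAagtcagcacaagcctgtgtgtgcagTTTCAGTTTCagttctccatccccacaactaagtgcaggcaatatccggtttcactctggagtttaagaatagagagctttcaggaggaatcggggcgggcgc
Igtp: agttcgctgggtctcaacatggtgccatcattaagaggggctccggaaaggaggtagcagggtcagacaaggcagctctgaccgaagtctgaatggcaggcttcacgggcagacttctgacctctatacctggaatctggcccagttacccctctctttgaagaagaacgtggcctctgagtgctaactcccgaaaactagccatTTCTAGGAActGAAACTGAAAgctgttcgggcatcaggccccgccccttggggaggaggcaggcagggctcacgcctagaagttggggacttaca
Irgm1: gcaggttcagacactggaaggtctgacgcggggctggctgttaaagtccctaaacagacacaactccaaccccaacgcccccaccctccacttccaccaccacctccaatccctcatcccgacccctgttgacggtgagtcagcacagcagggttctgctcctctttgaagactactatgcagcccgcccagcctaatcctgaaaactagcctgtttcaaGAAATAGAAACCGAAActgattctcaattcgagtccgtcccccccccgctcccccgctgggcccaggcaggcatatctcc

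All 10 genes were detected in all 5 cell types, and their summed level was highest in regulatory T cells of tumors, with means of 4910 ± 286 CPM in 12-month mice and 5420 ± 726 CPM in 3-month mice (SD, n = 4 each). Macrophages of tumors carried 3180 ± 319 CPM in 12-month mice and 4040 ± 1420 CPM in 3-month mice (SD, n = 4 each). The lowest sums were in splenic dendritic cells, which held 468 ± 69.1 CPM in the older and 320 ± 13.2 CPM in the younger mice (SD, n = 3 each). Within every cell type, the tumor groups were above the spleen groups in this sum.

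**Figure D1:**
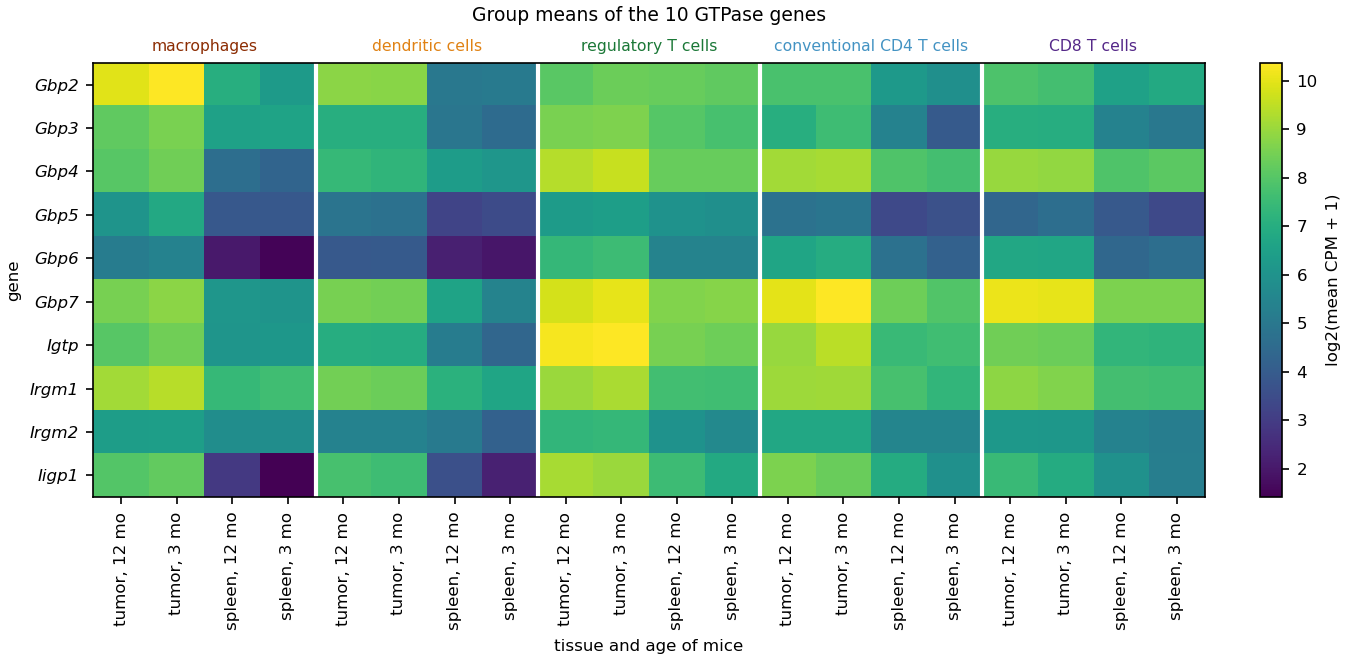
Group means of the 10 genes as log2(mean CPM + 1), with genes down the page and the 20 groups of tissue and age across, in blocks of 4 for each cell type. In each block the 2 tumor columns at the left are brighter than the 2 spleen columns for nearly every gene, with Gbp2 in regulatory T cells (means of 269 to 326 CPM in all 4 groups) as the plainest exception, and Iigp1 and Gbp6 are darkest in splenic macrophages and dendritic cells.

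Gbp2, a GBP that loads onto Toxoplasma vacuoles and bacteria, was highest in tumor macrophages of both ages (means of 1000 and 1310 CPM at 12 and 3 months), followed by tumor dendritic cells (444 and 433 CPM) and lowest in splenic dendritic cells (30.9 and 32.8 CPM). Gbp7, which aids the delivery of the phagocyte oxidase to bacteria-holding vacuoles, had another order: its 6 highest groups were the 6 T cell groups of tumors, between 883 and 1320 CPM, and its lowest was splenic dendritic cells at 3 months, with 41.4 CPM. Igtp led in regulatory T cells of tumors (1220 and 1320 CPM at 12 and 3 months), with conventional CD4 T cells of tumors next (506 and 690 CPM). Iigp1 (chr18:60376027-60392634, plus strand), the vacuole-loading effector, spanned the widest range, with a group mean 349 times higher in regulatory T cells of 12-month tumors (583 CPM) than in splenic macrophages at 3 months (1.67 CPM). Irgm1 was the most even, with 6.75-fold between its highest group mean (682 CPM, tumor macrophages at 3 months) and its lowest (101 CPM, splenic dendritic cells at 3 months). The others spanned 9.43-fold (Irgm2), 13.1-fold (Gbp5), 27.1-fold (Gbp3), 31.9-fold (Gbp7), 41.1-fold (Gbp4), 42.4-fold (Gbp2), 66.3-fold (Igtp) and 101-fold (Gbp6).

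With the 20 groups in order of their means, most neighbours lay within their spread. Of the 19 steps between neighbours, those larger than the larger SD of the pair numbered 8 for Igtp, 7 for Gbp3, 5 for Gbp6, 4 for Gbp2, 3 each for Gbp4, Gbp5, Gbp7 and Iigp1, and 2 each for Irgm1 and Irgm2. For Irgm1, the 10 tumor groups (325 to 682 CPM) all stood above the 10 spleen groups (101 to 214 CPM), with 1 of its 2 steps at that border. Igtp set both regulatory T cell groups of tumors apart from all others. For Iigp1, the 4 lowest groups were the splenic macrophages and dendritic cells, set off from the next group, CD8 T cells of 3-month spleens (36.7 CPM).

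To set genes side by side, levels were also taken per kilobase of annotated exon. The length counts all annotated exon bases of a gene, some shared with other genes, so the order between genes is approximate. On this scale Gbp2 led in tumor macrophages with 461 ± 181 CPM per kb (SD, n = 8) and in tumor dendritic cells with 174 ± 57.6 CPM per kb (SD, n = 7). Igtp led in tumor regulatory T cells, at 628 CPM per kb, and in tumor conventional CD4 T cells, at 280 CPM per kb, while Gbp7 led in tumor CD8 T cells, at 192 CPM per kb. Gbp5 and Gbp6 were at the bottom in tumors, with 13.4 and 6.37 CPM per kb in macrophages and 12.4 and 29.4 CPM per kb in regulatory T cells. In splenic dendritic cells the highest was Irgm1, with 20.7 CPM per kb.

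**Figure D2:**
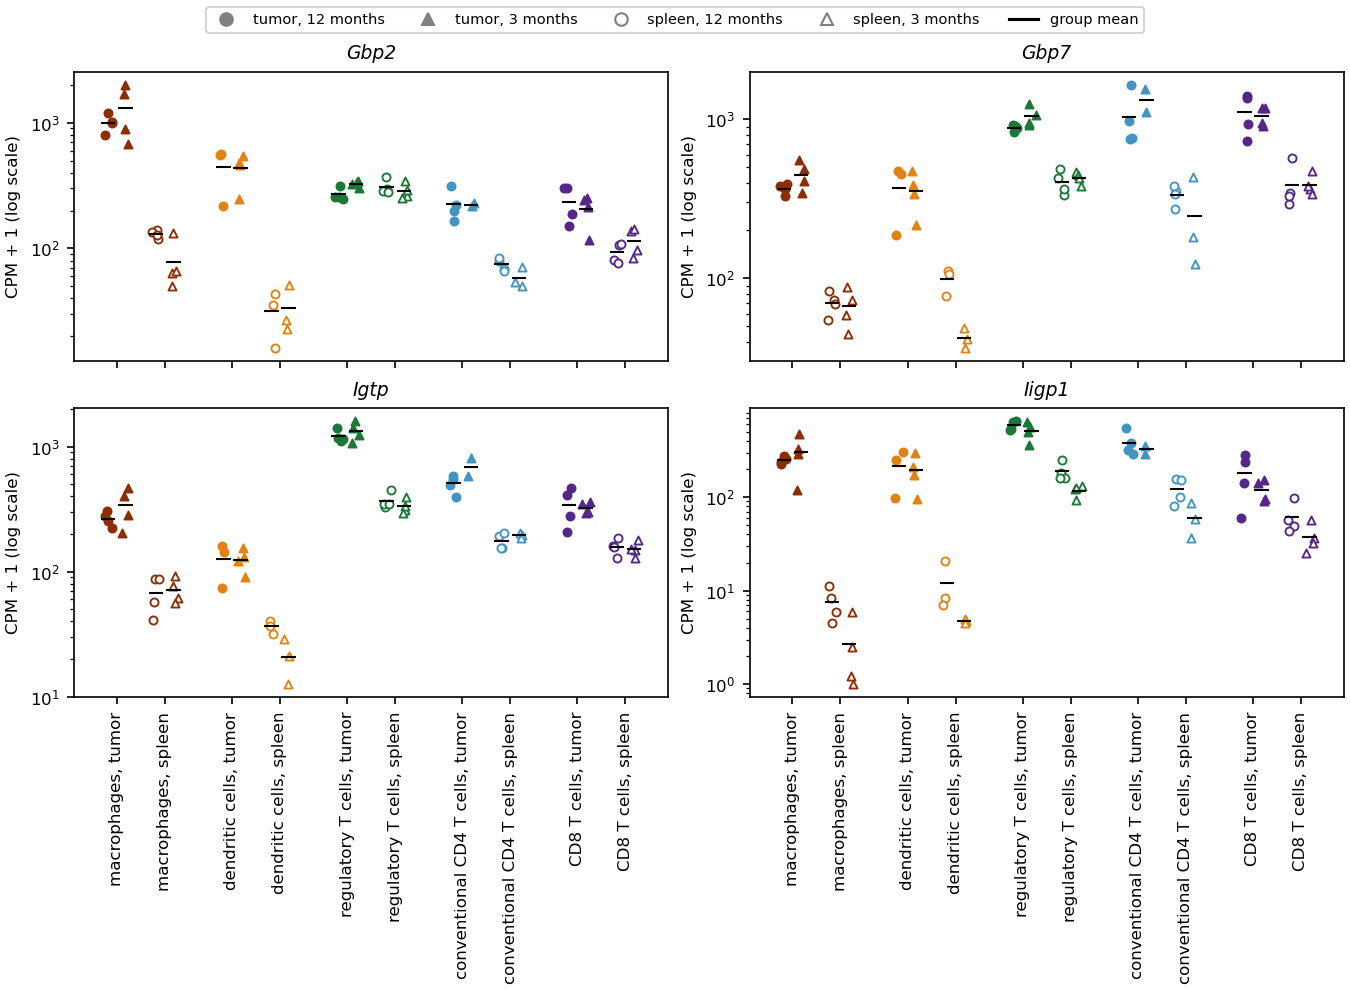
Every library for Gbp2, Gbp7, Igtp and Iigp1, as CPM + 1 on a log axis, by cell type and tissue (filled, tumor; open, spleen; circles, 12 months; triangles, 3 months; black lines, group means). Gbp2 separates tumor from spleen most in macrophages and dendritic cells and not in regulatory T cells, Gbp7 and Igtp are high in T cells of tumors, and Iigp1 is near 1 in several splenic macrophage libraries.

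Macrophages from tumors carried more of all 10 GTPase transcripts than macrophages from spleens. Iigp1 had 117, 266 and 470 CPM in tumor macrophages and 0, 4.20 and 10.2 CPM in splenic macrophages (lowest, median and highest of 8 libraries each). Gbp2 had 676, 1010 and 1990 CPM in tumor macrophages and 49.5, 122 and 140 CPM in splenic ones. Gbp4, of the chromosome 5 cluster, had 191, 279 and 562 CPM in tumor macrophages and 7.11, 22.3 and 34.8 CPM in splenic ones. In all 3 genes the lowest tumor library stood above the highest splenic one.

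By edgeR's quasi-likelihood test with Benjamini-Hochberg adjustment over all 12876 genes tested, 10 of 10 members rose and 0 fell at an adjusted p under 0.05. Beside them, 23.9% of all genes were called higher in tumor macrophages. Within each age, 9 members did not overlap between tissues, and later counts between tissues are also taken within each age. For this and the later counts of members without overlap, no share of all genes is given, so they do not set the members apart from other genes. The median log2 fold change was 2.82 for the members and -0.06 for all genes. Iigp1 rose by 6.45 on the log2 scale (SE 0.45, adjusted p = 1.1e-08), Gbp6 by 4.19 (SE 0.22, adjusted p = 1.02e-11) and Gbp4 by 4.05 (SE 0.33). Gbp2 rose by 3.74 (SE 0.25, adjusted p = 1.94e-09). Gbp5, a GBP tied to assembly of the NLRP3 inflammasome in mouse macrophages, rose by 2.84 (SE 0.31), Gbp7 by 2.80 (SE 0.15) and Gbp3 by 2.03 (SE 0.12). Among the regulators, Igtp rose by 2.35 (SE 0.19) and Irgm1, which mice need to resist mycobacteria, by 1.99 (SE 0.17). Irgm2 had the smallest change, 0.82 (SE 0.17, adjusted p = 0.000512), and its libraries overlapped, with 62.6, 78.0 and 121 CPM in tumor and 35.9, 56.0 and 73.0 CPM in spleen.

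In these sorted bulk libraries, fewer cells of a type and less RNA per cell cannot be told apart. Neutrophil transcripts were lower in the tumor sorts: the sum of the 7 markers ran between 13.2 and 639 CPM in tumor macrophage libraries and between 2970 and 26300 CPM in splenic ones. The sum of the 6 B cell markers ran between 6.49 and 33.3 CPM in tumor libraries and between 753 and 2730 CPM in splenic ones. Each marker of both lists had counts in both tissues. Their part in the result was not tested.

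In dendritic cells, too, all 10 members were higher in tumors than in spleens. Gbp2 had 218, 480 and 559 CPM in tumor dendritic cells (lowest, median and highest of 7 libraries) and 15.2, 30.4 and 50.6 CPM in splenic ones (6 libraries). Iigp1 had 95.5, 208 and 305 CPM in tumor and 3.52, 4.99 and 19.7 CPM in spleen. Gbp3, of the chromosome 3 cluster, had 68.7, 140 and 173 CPM in tumor and 20.2, 25.8 and 32.0 CPM in spleen. None of the 3 overlapped between tissues.

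Of 10 members, 10 rose and 0 fell in tumor dendritic cells, and 9 did not overlap, beside 24.4% of all genes called higher. The members' median log2 fold change was 2.51 and that of all 13981 genes -0.04. Iigp1 rose by 5.32 on the log2 scale (SE 0.46, adjusted p = 6.57e-06) and Gbp2 was 17.4-fold higher (SE 0.39 on the log2 scale, adjusted p = 1.41e-05). Gbp7 rose by 2.83 (SE 0.25), Gbp3 by 2.68 (SE 0.20), Igtp by 2.56 (SE 0.19), Gbp6 by 2.45 (SE 0.47), Gbp5 by 1.85 (SE 0.26) and Irgm1 by 1.84 (SE 0.13). Gbp4 rose by 1.46 (SE 0.21); its splenic level there, 74.6 ± 12.7 CPM (SD, n = 6), was above the 21.4 ± 10.2 CPM (SD, n = 8) of splenic macrophages. Irgm2 again had the smallest rise, 1.17 (SE 0.23, adjusted p = 0.000846). The sum of the 10 macrophage markers ran between 4140 and 24300 CPM in tumor dendritic cells and between 1120 and 1910 CPM in splenic ones, each marker had counts in both tissues, and the sum was highest in tumor replicate 2 of both ages. Without these 2 libraries 10 of 10 members still rose, by 0.93 (Irgm2) to 4.95 (Iigp1) on the log2 scale. The tumor libraries that remained held 4140 CPM or more of these markers, all above the splenic range, so that fit did not remove macrophage transcripts. Their part in the result was not tested. Without the 2 splenic libraries of conflicting labels 10 of 10 rose as well, by 0.96 (Irgm2) to 5.30 (Iigp1). The sum of the 8 dendritic cell markers ran between 857 and 3020 CPM in tumor and between 1680 and 2760 CPM in spleen, and that of the 6 B cell markers between 10.3 and 35.2 CPM in tumor and between 487 and 3040 CPM in spleen, whose part was not tested.

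Regulatory T cells, which hold high GTPase levels in the spleen already, carried more of 9 members in tumors by 0.69 to 2.29 on the log2 scale, and about the same level of Gbp2. Igtp had 1070, 1200 and 1590 CPM in tumor regulatory T cells and 294, 339 and 445 CPM in splenic ones (8 libraries each). Gbp6 had 123, 175 and 232 CPM in tumor and 31.7, 40.9 and 55.8 CPM in spleen. Iigp1 had 356, 545 and 645 CPM in tumor and 93.0, 144 and 251 CPM in spleen. These 3 genes did not overlap between tissues.

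By edgeR, 10 of 10 members rose in tumor regulatory T cells, and 8 did not overlap, beside 25.9% of all genes called higher. The members' median was 1.59 and that of all 13345 genes -0.05. Gbp6 rose by 2.29 (SE 0.16), Iigp1 by 2.13 (SE 0.13), Igtp by 2.10 (SE 0.10, adjusted p = 7.64e-13), Irgm2 by 1.79 (SE 0.13), Irgm1 by 1.73 (SE 0.12), Gbp7 by 1.45 (SE 0.10), Gbp4 by 1.43 (SE 0.10), Gbp3 by 0.96 (SE 0.08) and Gbp5 by 0.69 (SE 0.12). The estimates of the 3 IRG regulators were above those of Gbp2, Gbp3 and Gbp5. Gbp2 had 248, 309 and 341 CPM in tumor and 251, 290 and 370 CPM in spleen, means of 297 ± 38.4 CPM in tumor and 297 ± 40.7 CPM in spleen (SD, n = 8 each), so the tissues overlapped. Its log2 fold change was 0.23 (SE 0.09, adjusted p = 0.0393) with TMM scaling and -0.01 (adjusted p = 0.963) when counts were scaled by library totals alone, which placed the median of all genes at -0.29. The call on Gbp2 also ended without the low-count filter (0.23, adjusted p = 0.132) and in 10 of the 16 fits that left out 1 library, with adjusted p between 0.0507 and 0.0858. The sum of the 8 dendritic cell markers ran between 31.9 and 133 CPM in tumor regulatory T cells and between 654 and 868 CPM in splenic ones, and each had counts in both tissues. They did not move together: of the 3 that could be tested, Ccr7, which T cells also express, fell by 3.58 (SE 0.44), Xcr1 rose by 3.62 (SE 0.42) and Zbtb46 did not pass (-0.08, adjusted p = 0.807). The 6 B cell markers summed to between 16.2 and 32.4 CPM in tumor and between 60.6 and 111 CPM in spleen, and all 5 of those tested fell (median -2.49). The macrophage markers summed to between 30.0 and 99.6 CPM in tumor and between 43.2 and 80.6 CPM in spleen, with 4 of 7 tested that rose and 0 that fell. The part of these transcripts in the result was not tested.

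In conventional CD4 T cells all 10 members rose in tumors, and none of the 10 overlapped between tumor and spleen. Gbp3 had 90.9, 148 and 203 CPM in tumor (6 libraries) and 13.0, 30.6 and 57.4 CPM in spleen (7 libraries). Gbp7 had 749, 1040 and 1640 CPM in tumor and 123, 340 and 432 CPM in spleen. Irgm1 had 424, 529 and 643 CPM in tumor and 133, 199 and 245 CPM in spleen. The background was 16.0% of all 14661 genes called higher in tumor, and the median log2 fold change was 1.77 for the members and 0.04 for all genes. Gbp3 rose by 2.72 on the log2 scale (SE 0.18, adjusted p = 5.99e-12), Gbp6 by 2.45 (SE 0.19), Iigp1 by 2.12 (SE 0.21), Gbp7 by 2.09 (SE 0.26), Gbp2 by 1.82 (SE 0.17), Igtp by 1.72 (SE 0.15) and Irgm1 by 1.58 (SE 0.15). Gbp5 (1.42, SE 0.29), Gbp4 (1.40, SE 0.16) and Irgm2 (1.36, SE 0.18, adjusted p = 1.2e-06) rose least. The dendritic cell markers summed to between 190 and 594 CPM in tumor conventional CD4 T cells, where 1 of the 8 (Cd209a) had no count, and to between 685 and 1140 CPM in splenic ones. Of the 4 tested, Ccr7 (-1.72, SE 0.26) and Zbtb46 (-0.67, SE 0.25) fell and Xcr1 (4.06, SE 0.52) and Flt3 (2.86, SE 1.05) rose, with a median of 1.09. The B cell markers summed to between 8.3 and 34.5 CPM in tumor and between 12.3 and 55.5 CPM in spleen, and 2 of 6 fell. Their part was not tested.

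In CD8 T cells all 10 members rose, with the lowest median of the 5 types. Gbp6 had 64.2, 111 and 157 CPM in tumor CD8 T cells and 17.2, 22.1 and 28.1 CPM in splenic ones (8 libraries each), with no overlap. Iigp1 had 58.5, 141 and 278 CPM in tumor and 24.5, 45.2 and 97.4 CPM in spleen, so the tissues overlapped. Members that rose were 10 of 10, and 6 did not overlap, beside 22.5% of all 13285 genes called higher. The members' median was 1.19 and that of all genes -0.01. Gbp6 rose by 2.37 (SE 0.16, adjusted p = 3.38e-11), Gbp3 by 1.91 (SE 0.15), Iigp1 by 1.71 (SE 0.31), Gbp7 by 1.56 (SE 0.15), Igtp by 1.20 (SE 0.14), Irgm1 by 1.18 (SE 0.12) and Gbp2 by 1.18 (SE 0.19). Gbp4 (1.04, SE 0.12), Gbp5 (0.97, SE 0.22) and Irgm2 (0.96, SE 0.22, adjusted p = 0.00166) rose least. Here the same 8 markers summed to between 248 and 547 CPM in tumor and between 783 and 1180 CPM in spleen, where Cd209a had no count. Of the 4 tested, Ccr7 (-1.71, SE 0.22) and Zbtb46 (-1.42, SE 0.19) fell and Xcr1 (3.39, SE 0.26) and Itgax (2.48, SE 0.39) rose, with a median of 0.53. The B cell markers summed to between 9.06 and 33.8 CPM in tumor and between 58.4 and 111 CPM in spleen, and all 5 of those tested fell (median -3.27), which was likewise not tested.

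**Figure D3:**
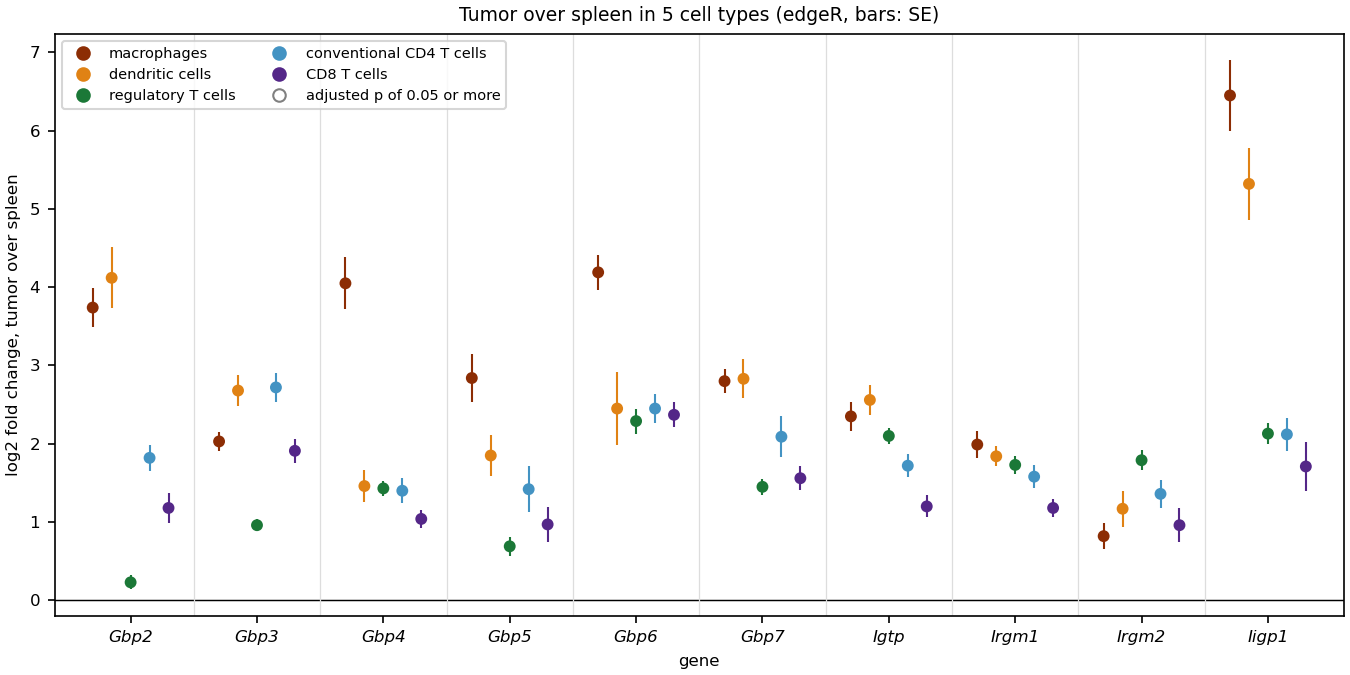
Log2 fold change of tumor over spleen for each of the 10 genes (across) in each of 5 cell types (colors), with bars of 1 SE and filled points at an adjusted p under 0.05 by edgeR. All 50 points are filled and above 0. Macrophages and dendritic cells stand highest for Iigp1 (6.45 and 5.32) and Gbp2, and Gbp2 in regulatory T cells is lowest (0.23).

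The tumor-to-spleen change of T cells was set against that of myeloid cells in 1 fit of all 74 libraries, with the 3 T cell types and the 2 myeloid types averaged. Of 10 members, 9 changed less in the average of the T cell types, beside 15.2% of all 20244 genes, and 0 changed more. The median of this difference (T cells minus myeloid cells) was -1.05 on the log2 scale for the members and 0.25 for all genes. The largest differences were those of Iigp1 (-3.92, SE 0.32, adjusted p = 3.51e-15) and Gbp2 (-2.88, SE 0.22, adjusted p = 1.1e-16). Gbp4 differed by -1.48 (SE 0.20), Gbp5 by -1.34 (SE 0.23), Gbp7 by -1.14 (SE 0.18), Gbp6 by -0.96 (SE 0.23) and Igtp by -0.81 (SE 0.15). Smaller were Gbp3 (-0.52, SE 0.14, adjusted p = 0.00141) and Irgm1 (-0.44, SE 0.14, adjusted p = 0.00879). Irgm2 was the exception, with 0.35 (SE 0.19, adjusted p = 0.15). In the fits of single cell types the order was not always that of the averages. Gbp3 rose by 2.72 in conventional CD4 T cells, 2.03 in macrophages and 2.68 in dendritic cells. Gbp6 rose by 2.45 in conventional CD4 T cells and in dendritic cells. Gbp4 rose by 4.05 in macrophages but by 1.46 in dendritic cells, near its 1.43 in regulatory and 1.40 in conventional CD4 T cells. With library totals in place of TMM, which moved the median of all genes to 0.41, Irgm1 lost its call (-0.26, adjusted p = 0.121) and Irgm2 passed the threshold in the other direction (0.52, adjusted p = 0.0199). Leaving out the libraries numbered replicate 2 ended the call on Gbp3 (-0.38, adjusted p = 0.0666), and leaving out 1 of the 4 replicate numbers ended that on Irgm1 (adjusted p = 0.113). Without the libraries numbered replicate 4, Irgm2 also passed in the other direction (0.65, adjusted p = 0.00473).

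Levels themselves were set against each other in the same fit. In the spleen, with cell types averaged, myeloid cells held less of most members than T cells did. Iigp1 had 0, 4.48 and 19.7 CPM in splenic myeloid cells (lowest, median and highest of 14 libraries) and 24.5, 93.0 and 251 CPM in splenic T cells (23 libraries). Gbp6 had 1.37, 2.47 and 6.38 CPM in splenic myeloid cells and 16.2, 23.5 and 55.8 CPM in splenic T cells. Neither gene overlapped. Members lower in myeloid cells were 8 of 10, and 5 did not overlap, beside 25.3% of all genes called lower. The median was -1.61 for the members and -0.05 for all genes. Neutrophil markers summed to 2970 to 26300 CPM in splenic macrophages, and to at most 17.1 CPM in splenic T cells. B cell markers summed to 753 to 2730 CPM in splenic macrophages and 487 to 3040 CPM in splenic dendritic cells. In splenic T cells they reached at most 111 CPM. The part of these transcripts in the result was not tested. For Gbp5 and Gbp2 the T cell types differed among themselves. Splenic means of Gbp5 were 13.7 CPM in macrophages, 9.33 in dendritic cells, 10.4 in conventional CD4, 11.9 in CD8 and 59.8 in regulatory T cells. Those of Gbp2 were 103, 31.9, 66.6, 103 and 297 CPM in the same order. The log2 fold changes of myeloid over T cells in spleen were -3.89 for Iigp1 (SE 0.27), -3.03 for Gbp6 (SE 0.20), -2.54 for Gbp4 (SE 0.16), -2.29 for Gbp7 (SE 0.15), -2.22 for Igtp (SE 0.12), -0.99 for Gbp2 (SE 0.16), -0.62 for Gbp5 (SE 0.18) and -0.27 for Irgm1 (SE 0.10). Gbp3 (-0.09, adjusted p = 0.503) and Irgm2 (-0.22, adjusted p = 0.206) did not pass, although both did with library totals (-0.28 and -0.41). The call on Gbp5 ended without the libraries numbered replicate 1 (adjusted p = 0.245), and that on Irgm1 without 1 of 2 replicate numbers (adjusted p = 0.0779 and 0.145). Without the 2 splenic dendritic cell libraries of conflicting labels 7 members were lower, and Irgm1 lost its call (-0.29, adjusted p = 0.092).

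In tumors the balance differed gene by gene. Gbp2 had 218, 676 and 1990 CPM in tumor myeloid cells (15 libraries) and 116, 249 and 341 CPM in tumor T cells (22 libraries). Gbp7 had 187, 384 and 555 CPM in tumor myeloid cells and 724, 945 and 1640 CPM in tumor T cells, with no overlap. Members that were higher in myeloid cells numbered 3, Gbp2 (1.89, SE 0.15), Gbp5 (0.72, SE 0.16) and Gbp3 (0.43, SE 0.10), beside 26.6% of all genes called higher. The 5 lower ones, beside 33.9% of all genes called lower, were Gbp6 (-2.07, SE 0.16), Igtp (-1.41, SE 0.11), Gbp7 (-1.15, SE 0.14), Gbp4 (-1.06, SE 0.14) and Irgm2 (-0.57, SE 0.14). Irgm1 (0.17, SE 0.10, adjusted p = 0.144) and Iigp1 (0.04, SE 0.21, adjusted p = 0.952) did not pass. The median over the members was -0.27, near the -0.26 of all genes. The estimate for Gbp3 was 0.06 (adjusted p = 0.599) with library totals, which placed the median of all genes at -0.61, and its call also ended without the libraries numbered replicate 2 (adjusted p = 0.0515).

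**Figure D4:**
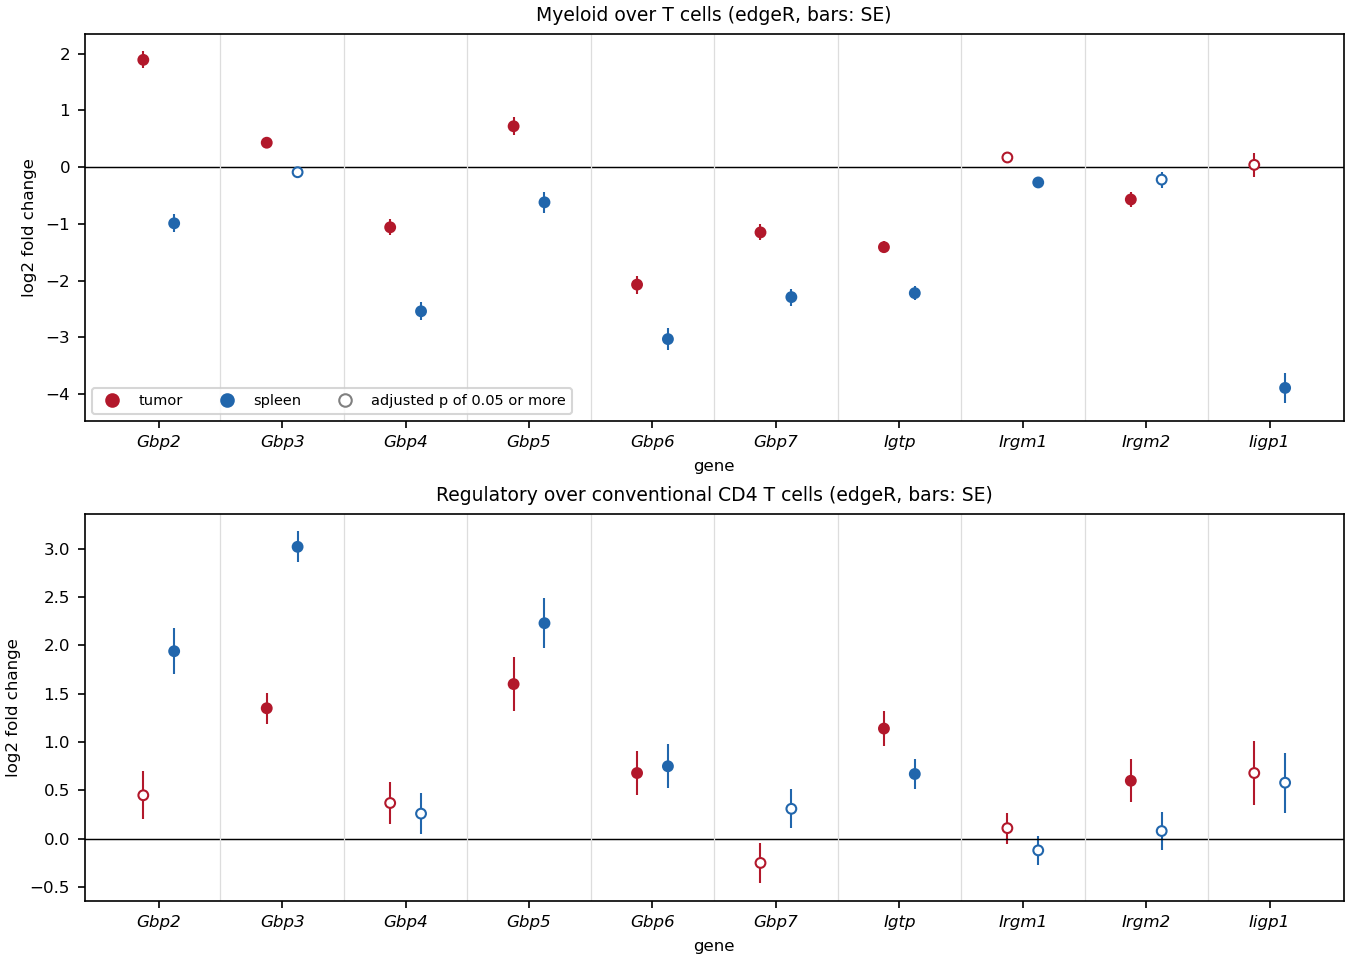
Log2 fold changes between cell types with bars of 1 SE, in tumor (red) and spleen (blue), filled at an adjusted p under 0.05 by edgeR. Upper panel, myeloid over T cells, where Gbp2 is at 1.89 in tumor and -0.99 in spleen, and Iigp1 at 0.04 and -3.89. Lower panel, regulatory over conventional CD4 T cells, where Gbp3 is highest in spleen, at 3.02.

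By the fit of all libraries, macrophages held more of most members than dendritic cells in both tissues. The 10 macrophage markers summed to 4140 to 24300 CPM in tumor dendritic cells and 23500 to 51200 CPM in tumor macrophages. Splenic macrophages held 2970 to 26300 CPM of the neutrophil markers. The part of these transcripts in the result was not tested. In tumors Gbp3 had 256, 320 and 435 CPM in macrophages (8 libraries) and 68.7, 140 and 173 CPM in dendritic cells (7 libraries), without overlap. Of 10 members, 8 were higher in tumor macrophages, and 7 did not overlap, beside 17.3% of all genes called higher. Their log2 fold changes over dendritic cells were 1.71 for Gbp5 (SE 0.27), 1.41 for Gbp2 (SE 0.25), 1.39 for Igtp (SE 0.18), 1.32 for Gbp3 (SE 0.16) and for Gbp6 (SE 0.24), 1.12 for Irgm2 (SE 0.21), 0.96 for Irgm1 (SE 0.16) and 0.91 for Gbp4 (SE 0.22). Gbp7 (0.20, adjusted p = 0.503) and Iigp1 (0.32, adjusted p = 0.499) did not pass. In spleens, 6 were higher in macrophages, beside 21.8% of all genes, with Gbp3 at 1.92 (SE 0.17), Gbp2 at 1.75 (SE 0.27), Igtp at 1.56 (SE 0.19), Irgm2 at 1.43 (SE 0.24), Irgm1 at 0.77 (SE 0.17) and Gbp5 at 0.67 (SE 0.28, adjusted p = 0.0497). Gbp4 was the 1 lower member, beside 21.1% of all genes, with -1.72 (SE 0.24, adjusted p = 1.55e-08). Splenic macrophages had 7.11, 22.3 and 34.8 CPM of Gbp4 and splenic dendritic cells 58.1, 73.6 and 96.7 CPM, so the order of these cell types for Gbp4 was opposite in the 2 tissues. The call on Gbp5 in spleen ended with library totals (adjusted p = 0.0612), without the filter (adjusted p = 0.121), with the replicate number as a block (0.63, adjusted p = 0.066), and without any 1 of the 4 replicate numbers. Without the 2 splenic dendritic cell libraries of conflicting labels, 6 members were again higher and 1 lower in splenic macrophages, with Gbp2 and Gbp3 both at 2.07, Gbp5 at 1.17 (adjusted p = 0.0301) and Gbp4 at -1.66.

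Among CD4 T cells, regulatory cells held more Gbp3, Gbp5, Gbp6 and Igtp than conventional ones in both tissues. In spleens Gbp3 had 203, 229 and 292 CPM in regulatory T cells (8 libraries) and 13.0, 30.6 and 57.4 CPM in conventional CD4 T cells (7 libraries), and Gbp2 had 251, 290 and 370 CPM in regulatory and 49.4, 67.3 and 83.6 CPM in conventional cells, both without overlap. The 5 members that were higher in splenic regulatory T cells, beside 18.5% of all genes, were Gbp3 (3.02, SE 0.16, adjusted p = 3.43e-24), Gbp5 (2.23, SE 0.26), Gbp2 (1.94, SE 0.24), Gbp6 (0.75, SE 0.23) and Igtp (0.67, SE 0.16). With library totals 8 members passed there, and the median of all genes was 0.36. In tumors 5 were higher, beside 18.0% of all genes, namely Gbp5 (1.60, SE 0.28), Gbp3 (1.35, SE 0.16), Igtp (1.14, SE 0.18), Gbp6 (0.68, SE 0.23) and Irgm2 (0.60, SE 0.22). Gbp2 was at 0.45 in tumors (SE 0.25, adjusted p = 0.153). The calls on Gbp6 and Irgm2 in tumors each ended when 1 of 2 replicate numbers was left out.

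CD8 T cells and conventional CD4 T cells differed in few members. In tumors Igtp (-0.74, SE 0.17, adjusted p = 0.00127) and Iigp1 (-1.18, SE 0.32, adjusted p = 0.00784) were lower in CD8 T cells, 2 of 10 members beside 5.98% of all genes called lower. Igtp had 205, 321 and 463 CPM in tumor CD8 T cells and 398, 562 and 803 CPM in tumor conventional CD4 T cells, and Iigp1 had 58.5, 141 and 278 CPM in CD8 and 286, 338 and 547 CPM in conventional CD4 cells, so Igtp overlapped and Iigp1 did not. In spleens Gbp3 was the 1 higher member (0.57, SE 0.16, adjusted p = 0.0111), beside 4.03% of all genes called higher. The call on Igtp and Iigp1 ended without the libraries numbered replicate 1, and that on Gbp3 without those numbered 2 (0.50, adjusted p = 0.0839) or 4 (0.46, adjusted p = 0.168).

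In tumors, edgeR called no member between ages with the low-count filter on and replicate numbers not blocked. By edgeR, 0 of 10 members passed an adjusted p under 0.05 between 12 and 3 months in any of the 5 cell types of tumors, and DESeq2 also called 0 in each. The share of all genes called in either direction was 0.0% in macrophages, dendritic cells, regulatory T cells and CD8 T cells and 0.0311% in conventional CD4 T cells. At an unadjusted p under 0.05 there were 2 members of 10 in macrophages (6.02% of all genes), 2 in conventional CD4 T cells (5.29%), 1 in regulatory T cells (3.94%) and 0 in dendritic cells (1.31%) and CD8 T cells (486 of 11804 genes). The median log2 fold changes of 12 over 3 months were -0.39 in macrophages, -0.00 in dendritic cells, -0.16 in regulatory T cells, -0.10 in conventional CD4 T cells and 0.10 in CD8 T cells. In tumor macrophages all 10 estimates were below 0, between -0.83 (Gbp5, SE 0.34, adjusted p = 0.79) and -0.07 (Irgm2, SE 0.21). Gbp5 there had 72.0, 69.7, 47.1 and 73.7 CPM at 12 months and 108, 84.9, 61.0 and 195 CPM at 3 months, so 1 library at 3 months lay within the range at 12 months. Without the low-count filter Gbp5 passed (-0.80, adjusted p = 0.0235).

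In spleens, 1 member rose with age in dendritic cells and 1 in conventional CD4 T cells. Gbp7 had 106, 110 and 76.2 CPM in splenic dendritic cells at 12 months (replicates 1, 3 and 4) and 40.6, 35.6 and 48.0 CPM at 3 months (replicates 1, 3 and 4), means of 97.3 ± 18.5 CPM at 12 months and 41.4 ± 6.28 CPM at 3 months (SD, n = 3 each), without overlap. It rose by 1.25 on the log2 scale (SE 0.20, adjusted p = 0.0122), the 1 member of 10 to do so, beside 0.443% of all genes called higher. The sum of the 6 B cell markers, each with counts in these libraries, ran between 1950 and 3040 CPM at 12 months and between 487 and 1590 CPM at 3 months, and the 5 plasma cell markers between 419 and 557 CPM at 12 months and between 81.4 and 332 CPM at 3 months. The 8 dendritic cell markers were lower at 12 months, between 1680 and 2070 CPM against 2520 to 2760 CPM at 3 months, and 1 of them, Cd209a, fell (-1.01, SE 0.18). The 10 macrophage markers ran between 1250 and 1390 CPM at 12 months and between 1120 and 1910 CPM at 3 months, and 1 of them, Adgre1, rose (1.12, SE 0.15). The part of these transcripts in the result was not tested. The call ended when both libraries of conflicting labels were grouped by age label, which left 1 library at 3 months (1.43, adjusted p = 0.796), when all 4 dendritic cell groups shared 1 fit (1.23, adjusted p = 0.337), and without any 1 of 4 libraries, namely all 3 at 12 months and replicate 1 at 3 months (adjusted p between 0.0623 and 0.144). Without both libraries of conflicting labels the estimate was 1.41. The lone library left at 3 months was male, and the fit held sex as a covariate. The estimate thus rested on that library and the 1 male library at 12 months, and spread at 3 months was not measured. The same holds for the fit by age label. Of the 10 members, 5 did not overlap between ages in these cells, a count with no share of all genes beside it. An unadjusted p under 0.05 was reached by 5 members, Gbp7 among them, beside 12.1% of all genes at that p. Igtp (0.89, SE 0.29, adjusted p = 0.204), Irgm2 (0.96, SE 0.32, adjusted p = 0.212), Irgm1 (0.47, SE 0.16, adjusted p = 0.216) and Iigp1 (1.47, SE 0.53, adjusted p = 0.263) did not pass. Without both libraries of conflicting labels these were at 0.39 for Igtp, 0.75 for Irgm2, 0.41 for Irgm1 and 0.79 for Iigp1. These estimates, too, rested on 1 male library of each age.

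Gbp3 had 57.4, 39.6, 37.4 and 30.6 CPM in splenic conventional CD4 T cells at 12 months and 13.0, 17.7 and 13.2 CPM at 3 months, means of 41.2 ± 11.4 CPM at 12 months (SD, n = 4) and 14.6 ± 2.67 CPM at 3 months (SD, n = 3). The ages did not overlap, and Gbp3 rose by 1.33 on the log2 scale (SE 0.30, adjusted p = 0.0188), 1 of 10 members beside 1.96% of all genes called higher. In tumor conventional CD4 T cells Gbp3 did not pass without a block, with 90.9, 141, 133 and 155 CPM at 12 months and 203 and 177 CPM at 3 months (-0.56, SE 0.23, adjusted p = 0.83), and fell with the replicate number as a block (-0.81, adjusted p = 0.0196), where 2 pairs of numbers are shared. The difference between the age effects in tumor and in spleen was -1.93 (SE 0.36, adjusted p = 0.00523), 1 of 10 members beside 0.641% of all genes that fell in this interaction. Ribosomal protein genes took 3.52 to 4.02% of counts in the splenic libraries at 12 months and 7.83, 4.16 and 10.6% at 3 months. Without the 2 libraries of high share at 3 months the age effect in spleen was 1.16 (adjusted p = 0.375) and the interaction -1.76 (adjusted p = 0.1), fits in which the lone library left at 3 months was assumed to vary like the other groups. The call in spleen also ended without any 1 of 5 libraries (replicates 1, 2 and 3 at 12 months, 1 and 4 at 3 months, adjusted p between 0.0524 and 0.114), and that of the interaction without replicate 1 of 3-month tumors (-1.79, adjusted p = 0.0695). Without replicate 3 at 3 months, Gbp7 (0.92, adjusted p = 0.000858) and Iigp1 (1.16, adjusted p = 0.0062) also passed in spleen.

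No member passed between 12 and 3 months in splenic macrophages, regulatory T cells or CD8 T cells by edgeR or DESeq2, where all genes were called at 0.0%, 0.0489% and 1.02%. At an unadjusted p under 0.05 there were 2, 1 and 1 members, beside 6.07%, 5.33% and 7.78% of all genes. The interaction of age with tissue called 0 members in macrophages, dendritic cells, regulatory T cells and CD8 T cells by either tool, beside 0.0%, 0.0%, 0.0% and 0.143% of all genes, with 3, 2, 0 and 0 members at an unadjusted p under 0.05, beside 4.81%, 5.56%, 3.9% and 4.74% of all genes. In dendritic cells 0 were also called without the 2 libraries of conflicting labels. Iigp1 had positive estimates in all 5 cell types of the spleen, and none passed. In splenic macrophages it had 10.2, 3.46, 7.29 and 4.94 CPM at 12 months (52, 18, 24 and 22 counts) and 0, 1.51, 0.229 and 4.95 CPM at 3 months (0, 7, 1 and 33 counts), an estimate of 1.89 (SE 0.82, adjusted p = 0.817). In regulatory T cells of the spleen it had 180, 251, 158 and 161 CPM at 12 months and 120, 130, 93.0 and 123 CPM at 3 months, without overlap (0.67, SE 0.16, adjusted p = 0.416). The estimates were 1.47 in dendritic cells, 0.87 in conventional CD4 T cells (SE 0.28, adjusted p = 0.0882) and 0.73 in CD8 T cells (SE 0.27, adjusted p = 0.435). Without the low-count filter Iigp1 passed in the 3 splenic T cell types (0.70 in regulatory, 0.89 in conventional CD4 and 0.72 in CD8 T cells).

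**Figure D5:**
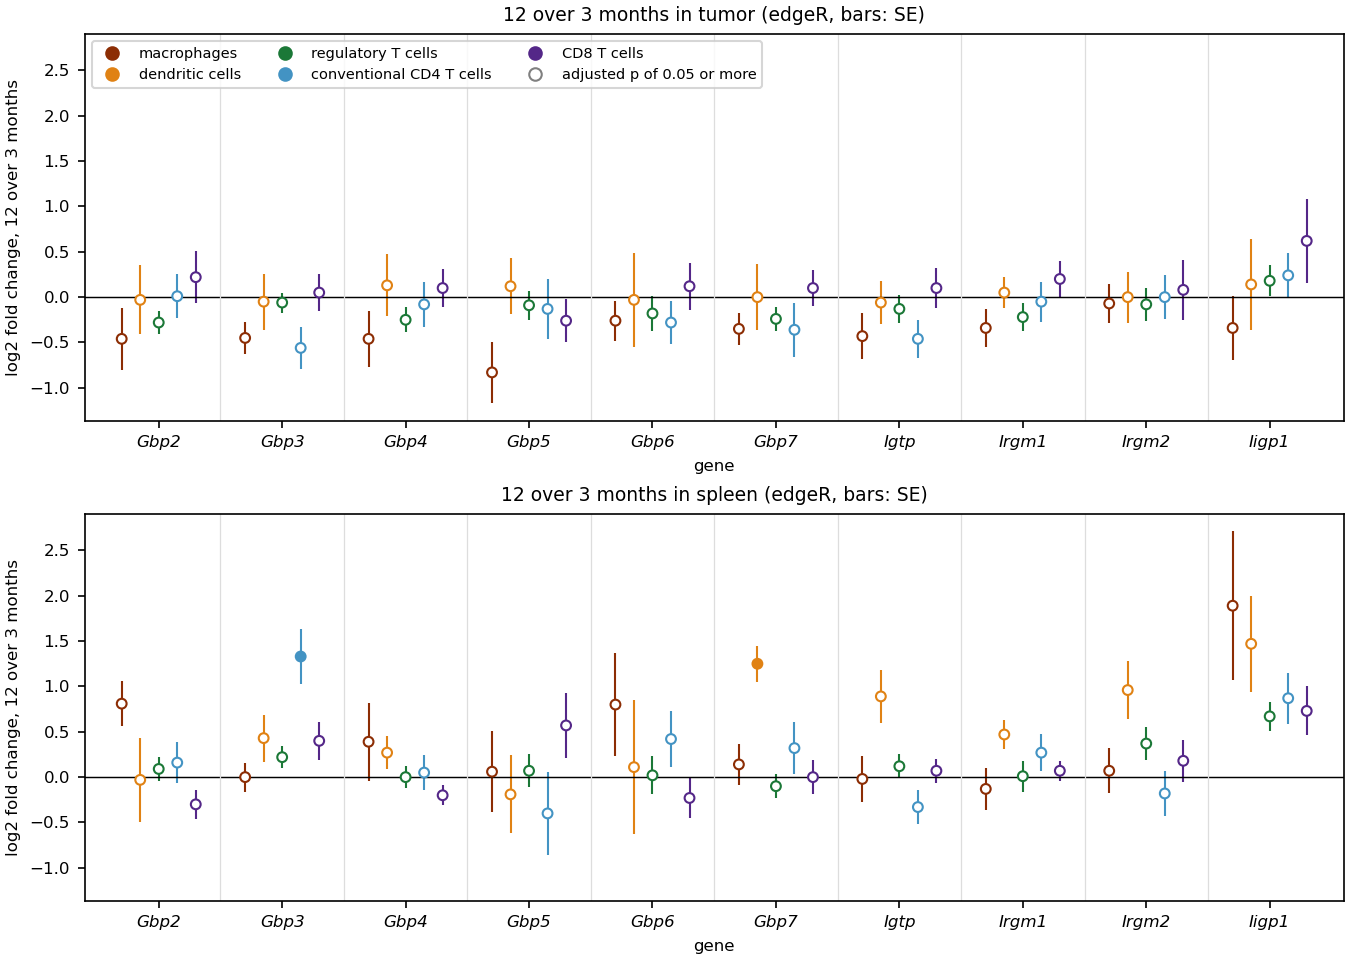
Log2 fold change of 12 over 3 months for the 10 genes in tumor (upper panel) and spleen (lower panel), by cell type, with bars of 1 SE and filled points at an adjusted p under 0.05 by edgeR. The 2 filled points are Gbp7 in splenic dendritic cells (1.25) and Gbp3 in splenic conventional CD4 T cells (1.33), and the 5 open points of Iigp1 in spleen lie between 0.67 and 1.89.

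The other genes of the 2 families, a list of 16, mostly moved with the members between tissues. Of those tested, 12 of 15 rose and 1 fell in tumor macrophages (median 3.04), 10 of 15 rose and 0 fell in tumor dendritic cells (2.17), 9 of 16 rose and 2 fell in regulatory T cells (0.72), 12 of 15 rose and 0 fell in conventional CD4 T cells (1.34) and 9 of 15 rose and 0 fell in CD8 T cells (0.77). Of all genes, 23.9%, 24.4%, 25.9%, 16.0% and 22.5% were called higher in tumor, in the same order. The IRG Ifi47 (Irgd) rose in all 5 types, by 2.15 (SE 0.16) in macrophages, 2.16 (SE 0.15) in dendritic cells, 0.90 (SE 0.09) in regulatory, 0.86 (SE 0.14) in conventional CD4 and 0.49 (SE 0.10) in CD8 T cells. Gbp2b (mouse Gbp1), also of the chromosome 3 cluster, went in opposite directions: its mean was 32.5 ± 35.8 CPM in tumor macrophages and 0.361 ± 0.531 CPM in splenic ones (SD, n = 8 each, log2 fold change 6.95, SE 0.84, adjusted p = 4.27e-06), and 2.02 ± 3.10 CPM in tumor regulatory T cells and 30.1 ± 8.92 CPM in splenic ones (SD, n = 8 each, log2 fold change -3.80, SE 0.67, adjusted p = 0.00016). Gbp10, of the chromosome 5 cluster, was far higher in T cells of tumors, with 27.4 ± 21.5 CPM in tumor T cells (SD, n = 22) and 0.391 ± 0.491 CPM in tumor myeloid cells (SD, n = 15), which gave -6.73 on the log2 scale for myeloid over T cells (SE 0.45). Gbp9 did not pass in dendritic cells (-0.21, SE 0.21, adjusted p = 0.422). In the difference of T cells minus myeloid cells, 12 of 16 fell and 2 rose, with a median of -1.53. Of all 20244 genes, 3071 fell and 4188 rose there.

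The transcript of interferon gamma itself was highest in CD8 and conventional CD4 T cells of tumors. Ifng averaged 453 ± 243 CPM in tumor CD8 T cells and 6.98 ± 4.79 CPM in splenic ones (SD, n = 8 each), a rise of 6.20 on the log2 scale (SE 0.46, adjusted p = 1.7e-07). In conventional CD4 T cells it averaged 164 ± 41.6 CPM in tumor (SD, n = 6) and 21.1 ± 20.4 CPM in spleen (SD, n = 7), a rise of 3.54 (SE 0.32). Regulatory T cells of tumors, where the summed GTPase level was highest, had 3.10 ± 1.67 CPM of Ifng, and tumor macrophages 0.890 ± 1.38 CPM (SD, n = 8 each). The receptor chains moved in opposite directions in T cells. Ifngr1, the ligand-binding chain, rose by 2.71 (SE 0.11) in regulatory, 3.59 (SE 0.15) in conventional CD4 and 2.04 (SE 0.09) in CD8 T cells of tumors and fell in tumor macrophages by 0.91 (SE 0.11), with 560 ± 86.0 CPM in tumor and 1230 ± 224 CPM in spleen (SD, n = 8 each). Ifngr2, the signaling chain, chosen after its values were seen, fell in tumor regulatory (-1.95, SE 0.18), conventional CD4 (-1.53, SE 0.31) and CD8 T cells (-2.26, SE 0.56), and rose in tumor macrophages (0.36, SE 0.10) and dendritic cells (1.11, SE 0.12).

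Of the 18 genes of interferon receptors and signaling, 12 rose in each of the 5 cell types of tumors and 3, 0, 2, 1 and 2 fell in macrophages, dendritic cells, regulatory, conventional CD4 and CD8 T cells. For this list and those that follow, the shares of all genes called higher were 23.9%, 24.4%, 25.9%, 16.0% and 22.5% in the same order. Irf7, an interferon-induced transcription factor, rose by 2.62 (SE 0.20) in tumor macrophages, while Irf9 did not pass there (0.21, adjusted p = 0.086). Socs3, an inhibitor of cytokine signaling, rose by 5.74 (SE 0.14) in dendritic cells. The 24 type I interferon targets rose in nearly full number, 23 in macrophages, dendritic cells, regulatory and conventional CD4 T cells and 24 in CD8 T cells, with medians of 1.99, 2.78, 2.95, 2.04 and 2.42, such as Isg15 in macrophages (3.43, SE 0.23). Sp100 did not pass in 4 of the types, with values of 0.10 to 0.34. Of the interferon gamma targets outside the GTPases, 18 of 19 rose in macrophages, 16 of 19 in dendritic cells (2 fell), 12 of 17 in regulatory and in conventional CD4 T cells and 15 of 17 in CD8 T cells. Among them the chemokine Cxcl10 rose by 5.13 (SE 0.32) in tumor macrophages, and Tap1, a peptide transporter subunit, by 1.35 (SE 0.07) in regulatory T cells.

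The autophagy and inflammasome genes that the GTPases work with did not move as one in macrophages, where 4 of 18 rose and 4 fell (median -0.04). Of all 12876 genes tested there, 3072 rose and 3582 fell, so the list lay near the shares of all genes. Atg7, an autophagy enzyme, had -0.91 (SE 0.11) and Map1lc3b (LC3B) -0.89 (SE 0.11) there, while Sqstm1 (p62) had 0.62 (SE 0.12), and Il1b did not pass (-0.00, adjusted p = 0.989). In the other types 10 of 18 rose in dendritic cells, 9 of 16 in regulatory, 6 of 16 in conventional CD4 and 9 of 16 in CD8 T cells, with 1, 0, 1 and 0 that fell. Casp4 (mouse caspase-11), the sensor of bacterial lipopolysaccharide that GBPs help to engage, rose in tumors by 0.42 (SE 0.13) in macrophages, 1.53 (SE 0.16) in dendritic cells, 0.80 (SE 0.12) in regulatory, 2.11 (SE 0.15) in conventional CD4 and 3.60 (SE 0.16) in CD8 T cells. With age, Casp1 and Casp4 rose in splenic conventional CD4 T cells (2.16, SE 0.26, and 1.97, SE 0.23) and in splenic CD8 T cells (2.83, SE 0.27, and 2.58, SE 0.30), while the calls among the members were 1 in splenic conventional CD4 T cells (Gbp3) and 0 in splenic CD8 T cells.

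The members varied together across the 20 group means, with Pearson r of log2(CPM + 1) between 0.45 and 0.96 over the 45 pairs of genes (median 0.77), and Spearman rho between 0.44 and 0.98 (median 0.76). Group means share the tissue contrast and their libraries, and these values describe that. For the deviations of single libraries from their group means, r was between 0.10 and 0.69, with a median of 0.46, and 15 of 45 pairs were over 0.5. Similar patterns were sought among 10752 other genes with a group mean of 10 CPM or more somewhere. Predicted genes (Gm or Rik names) were left out unless they stood on a gene list. The pattern most like the mean of all 10 members over the 20 groups was that of Gm12250, which is an IRG gene itself (Irgb10), with r = 0.974. Next were H2-T22 (0.939), a nonclassical MHC class I gene, and Socs1 (0.936), an inhibitor of interferon receptors. Igtp was most like H2-T22 (0.975), Irgm1 like Parp14 (0.971), Gbp6 like Tnfsf10 (0.967), Gbp7 like Ifi47 (0.956), Gbp4 like Tnfsf10 (0.940) and Iigp1 like Socs1 (0.925). Gbp2, Gbp3 and Gbp5 of the chromosome 3 cluster had the same nearest gene, Bcl2l1 (BCL-XL, an inhibitor of apoptosis), with r = 0.915, 0.951 and 0.950. Irgm2 was most like Il1rl1 (0.929), the IL-33 receptor.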

How the data were processed

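Each of the 74 libraries was made with Smart-seq2 from 1000 double-sorted cells. The authors deposited raw counts per gene symbol in 1 table, with STAR 2.5.3, featureCounts and mm10 named per the submitters' processing notes. Not given in the sources used here: annotation release, strand setting, handling of multimapping reads. CPM are counts scaled to library totals, and no interval is given for single libraries. No 2 libraries of a group were alike within counting noise. The members, gene lists and tests were chosen with earlier results of these data known.

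Differences were tested with edgeR 4.0.16 (TMM, filterByExpr, quasi-likelihood, two-sided, Benjamini-Hochberg over all genes tested, threshold 0.05), checked on simulated counts. Tissue and interaction fits took the 4 groups of a cell type, age fits 2 groups, and comparisons of cell types all 74 libraries. Dendritic cell fits and the fit of all 74 libraries held sex as a covariate, and the male libraries were all of dendritic cells. DESeq2 1.42.0, other scalings, no filter, a replicate block and left-out libraries were alternatives. Named genes were all members, the other GBP and IRG genes, and from each list the 3 called genes of smallest adjusted p and the most abundant gene not called; the result on another gene of the signaling list is not reported here. Replicate numbers were tested for pairing by the correlation of same-numbered deviations, which was over 0.1 in each of 4 pairs in 1 comparison only, 12 over 3 months in tumor regulatory T cells (0.11 to 0.342); the labels give no shared animal, and the blocked fit there called 0 members too. Motif positions are counted from the RefSeq start.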

Additional observations from a re-analysis of the deposited data

Results flagged for a closer look

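In 6 of 150 gene and group combinations of 4 libraries (4.0%), 1 library stood apart from the other 3 by more than Dixon's 95% limit, which chance gives in about 1 of 20 groups. These were Gbp2 in regulatory T cells of 12-month tumors (replicate 4 at 315 CPM, the others at 248 to 257 CPM) and Gbp3 in the same group (replicate 1 at 370 CPM, the others near 386 CPM). Gbp3 in splenic macrophages at 3 months had replicate 1 at 109 CPM, with the others at 90.5 to 92.6 CPM. Gbp5 had replicate 3 at 47.1 CPM in 12-month tumor macrophages (others 69.7 to 73.7 CPM) and replicate 4 at 71.6 CPM in splenic regulatory T cells at 3 months (others 53.2 to 54.1 CPM). Irgm2 in splenic CD8 T cells at 12 months had replicate 3 at 51.8 CPM, with the others at 36.1 to 38.1 CPM.

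The effect of age on Gbp3 in conventional CD4 T cells differed between tumor and spleen by -1.93 on the log2 scale by the interaction test. With cell types averaged, the effect of tissue differed between T cells and myeloid cells for 9 members. The differences were -3.92 for Iigp1, -2.88 for Gbp2, -1.48 for Gbp4, -1.34 for Gbp5, -1.14 for Gbp7, -0.96 for Gbp6, -0.81 for Igtp, -0.52 for Gbp3 and -0.44 for Irgm1 (T cells minus myeloid cells, log2 scale).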

How the results depend on the processing

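In each of the 5 cell types 10 of 10 members stayed called higher in tumor under every alternative run, apart from Gbp2 in regulatory T cells, which was at -0.01 with library totals and also lost its call without the low-count filter and in 10 of 16 fits that left out 1 library. Counts of members called between ages moved without the low-count filter, to 1 in tumor macrophages, 1 in splenic regulatory T cells, 2 in splenic conventional CD4 T cells and 1 in splenic CD8 T cells. In splenic dendritic cells the count was 0 with all 4 groups in 1 fit and 0 with the 2 libraries of conflicting labels placed by age label, and 0 to 1 without single libraries. In splenic conventional CD4 T cells it was 0 without replicates 1 and 4 at 3 months and 0 to 3 without single libraries, and the interaction was at 0 and at 0 to 1. With the replicate number as a block, 1 member (Gbp3, -0.81) was called between ages in tumor conventional CD4 T cells, where 2 pairs of numbers are shared. Without 1 replicate number the counts were 3 to 7 for regulatory over conventional CD4 T cells in tumor, 0 to 2 for CD8 over conventional CD4 T cells in tumor and 0 to 2 in spleen, where DESeq2 called 3. Library totals gave 8 for regulatory over conventional CD4 T cells in spleen. The cause was not tested, beyond fewer libraries or other scaling.

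Of the values of single members called, 38 lost the call and 940 kept it when a library or replicate number was left out, while under other alternatives 11 lost it with the same sign, 1 (Gbp2 in regulatory T cells, library totals) lost it with the opposite sign and 626 kept it. Of the values not called, 9 gained a call and 1593 did not when a library or replicate number was left out. Under other alternatives 16 gained a call and 1046 did not. Over all genes, the number called tumor over spleen was 6583 (4375 to 7296 over the alternatives) in dendritic cells and 3990 (2465 to 4517) in conventional CD4 T cells. Between ages in spleen it was 75 (0 to 444) in dendritic cells, 6 (2 to 56) in regulatory, 460 (79 to 2400) in conventional CD4 and 119 (72 to 192) in CD8 T cells, and 0 (0 to 53) in macrophages. In tumor it was 4 (0 to 116) in conventional CD4 T cells and 0 in the others, where alternatives reached 43 in macrophages, 5 in dendritic cells, 41 in regulatory and 39 in CD8 T cells. Interactions had 98 (24 to 640) in conventional CD4 and 19 (12 to 81) in CD8 T cells, and 0 in macrophages, dendritic cells and regulatory T cells (up to 5, 126 and 13). CD8 over conventional CD4 T cells had 2592 (893 to 2809) in tumor and 1850 (950 to 2323) in spleen. Leaving out single libraries in the fit of all 74 was not run. Left-out replicate numbers, library totals and, between cell types, leaving out both libraries of conflicting labels were chosen after seeing the data. The block changed no other call of a member count by over 1.5 times.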
